A study of Mus musculus with 4 samples.

Results

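The metabotropic glutamate receptor genes Grm2, Grm3, Grm4, Grm5, Grm7 and Grm8 were examined in brain septal tissue of mice. They were taken by gene symbol, which gave 6 of 15409 gene rows, and all 6 passed the filter on low values described below. The remaining genes of the family were not analysed here. Donors were wild-type (WT) mice and TCRb-/- mice, whose T cell receptor beta gene is deleted. All had undergone 30 min of restraint on each of 3 days, with tissue collected 1.5 h later, so no unstressed group stood beside them. There were 4 libraries, 2 per genotype, each from tissue pooled over 4 to 5 mice, and each genotype had 1 library in experiment 1 and 1 in experiment 2. The labels give neither the age nor the strain background of the mice. The study compared the septal transcriptomes of the 2 genotypes.

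Metabotropic glutamate receptors are G protein-coupled receptors that sense glutamate through a large extracellular domain and act more slowly than the ion channel receptors. Group I, here Grm5, couples to Gq and phospholipase C and lies mostly at the edge of the postsynaptic density. Group II (Grm2 and Grm3) and group III (Grm4, Grm7 and Grm8) couple to Gi/o, lower cyclic AMP and mostly restrain transmitter release, and Grm3 is also found on astrocytes.

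The libraries held between 19988137 and 26210790 reads. Trbc2, a constant segment of the deleted chain, had 0 reads in both TCRb-/- libraries (allowing up to 0.122 and 0.150 CPM, where CPM is the read count scaled to the library total) and 169 and 86 reads in the WT libraries of experiments 1 and 2. The septal genes Zic1 and Zic2 were present in all 4 libraries, at 34.6 to 51.5 CPM and 4.54 to 9.41 CPM. The septum list (10 of 10 listed) summed to 210 CPM in TCRb-/- and 219 CPM in WT in experiment 1, and to 244 and 234 CPM in experiment 2. Genes of neighbouring regions were present too, and their summed levels differed between libraries. Genes of the striatum (15 of 15 listed) summed to 3738 CPM in TCRb-/- and 3334 CPM in WT in experiment 1, but to 841 and 1914 CPM in experiment 2. The thalamus list (11 of 11 listed) summed to 441 and 447 CPM in experiment 1 and to 831 and 551 CPM in experiment 2. Choroid plexus genes (14 of 14 listed) summed to 2162 and 1322 CPM in experiment 1 and to 6931 and 4218 CPM in experiment 2. Cortex and hippocampus genes (9 of 9 listed) went from 225 and 251 CPM to 168 and 160 CPM.

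The genes lie on 5 chromosomes of GRCm38, the assembly also called mm10, and GENCODE M21 annotates each as protein-coding. Grm2 is compact, on chromosome 9 from 106643095 to 106656082, and Grm3 lies on chromosome 5 from 9485541 to 9725170. Grm4 lies on chromosome 17 from 27422387 to 27521403. Grm5 spans chromosome 7 from 87584168 to 88134907. Grm7 and Grm8 share chromosome 6, from 110645581 to 111567230 and from 27275119 to 28135178. Chromosome 6 also carries the deleted T cell receptor locus, and Grm8 lies 13.4 Mb from Trbc2 and Grm7 69.1 Mb from it. Some exon bases are shared with other genes. Grm2 shares 470 with the antisense gene Gm28111, Grm7 shares 130 with the antisense gene Gm20387, and Grm8 shares 96 with Mir592. Whether the counting used strand is not given in the sources used here, so reads over the bases shared with Gm28111 and Gm20387 cannot be assigned. Mir592 lies on the same strand as Grm8, so strand would not separate reads over the bases they share.

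The promoters of the group II pair, Grm2 and Grm3, are shown because these 2 genes moved in opposite directions between the experiments. That of Grm7 is shown because it fell, as Grm3 did. Each sequence runs from 250 bases before to 50 after an annotated RefSeq start, 5′ to 3′ on the gene's strand in GRCm38.p6. The table of promoters held 4 of the 6 genes, without Grm4 and Grm5, which fell as well.
Grm2 (chr9:106656060-106656359, minus strand): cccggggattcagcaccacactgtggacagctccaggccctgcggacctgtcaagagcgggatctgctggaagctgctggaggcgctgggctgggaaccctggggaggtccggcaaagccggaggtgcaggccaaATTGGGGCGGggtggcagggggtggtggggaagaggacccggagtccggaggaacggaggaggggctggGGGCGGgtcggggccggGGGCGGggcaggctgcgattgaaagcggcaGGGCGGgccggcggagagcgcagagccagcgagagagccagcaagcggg
Grm3 (chr5:9725303-9725602, minus strand): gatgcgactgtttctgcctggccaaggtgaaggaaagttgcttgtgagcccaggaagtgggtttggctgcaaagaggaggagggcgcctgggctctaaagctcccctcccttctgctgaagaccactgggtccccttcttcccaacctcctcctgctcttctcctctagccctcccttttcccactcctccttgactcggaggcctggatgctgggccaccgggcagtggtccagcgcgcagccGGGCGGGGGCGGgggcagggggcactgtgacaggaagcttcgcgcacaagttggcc
Grm7 (chr6:110645262-110645561, plus strand, the first of 2 listed starts): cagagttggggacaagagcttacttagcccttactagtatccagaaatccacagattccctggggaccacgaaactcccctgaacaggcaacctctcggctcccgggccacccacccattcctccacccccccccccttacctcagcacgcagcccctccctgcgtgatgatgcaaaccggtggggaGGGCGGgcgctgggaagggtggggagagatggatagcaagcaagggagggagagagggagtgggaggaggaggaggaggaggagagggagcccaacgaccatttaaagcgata
Capitals mark matches on either strand to the motifs searched, which were GGGCGG (the GC box), CCAAT (bound by the factor NF-Y), TATAAA (bound by the TATA-binding protein), TGACG (the core of the cyclic AMP response element) and AGAACA (the core of the glucocorticoid response element). The GC box matched 4 times in the Grm2 window, 2 times in the Grm3 window and 1 time in the Grm7 window, and 35.7% of 32851 promoters of this length hold it. The Grm2 window also held 1 match to CCAAT on the opposite strand, which overlaps a GC box by 1 base, and 37.4% of promoters hold that motif. None of the other 3 motifs matched in the printed windows. They are found in 13.6%, 20.8% and 19.0% of promoters, in the order given. The GC content of the Grm2, Grm3 and Grm7 windows was 72.0%, 63.7% and 61.0%, against a median of 52.7%. These matches describe the letters only.

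Levels of different genes were compared per kilobase of the longest protein-coding transcript, in CPM per kb. Grm3 had the highest level, 17.4 ± 5.50 CPM per kb (SD, n = 4 libraries), followed by Grm5 at 10.3 ± 1.90, Grm7 at 8.44 ± 1.16, Grm4 at 7.85 ± 1.50, Grm2 at 5.21 ± 2.25 and Grm8 at 3.82 ± 0.433. The ranges over libraries of every pair of neighbours in this order overlapped. Within libraries, Grm3 was above Grm5, Grm5 above Grm7 and Grm7 above Grm4 in 4 of 4 libraries. Grm4 was above Grm2 in 3 of 4, and Grm2 above Grm8 in 2 of 4. With the merged length of all exons in place of that transcript, Grm7 (6.02 ± 0.830 CPM per kb) and Grm4 (6.05 ± 1.16) changed places, and Grm8 fell to 1.49 ± 0.169 CPM per kb. By group, the Gq-coupled Grm5 made up 18.3% to 20.3% of the summed level per kb of the 6 genes, group II 41.7% to 43.5% and group III 36.2% to 39.0%. These shares differed little between libraries, but they rest on the longest protein-coding transcript and were not computed with the merged length. Inside group II they did not stay level: Grm2 was 6.52% and 5.63% of the sum in TCRb-/- and WT of experiment 1, and 17.8% and 11.4% in experiment 2.

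**Figure D1:**
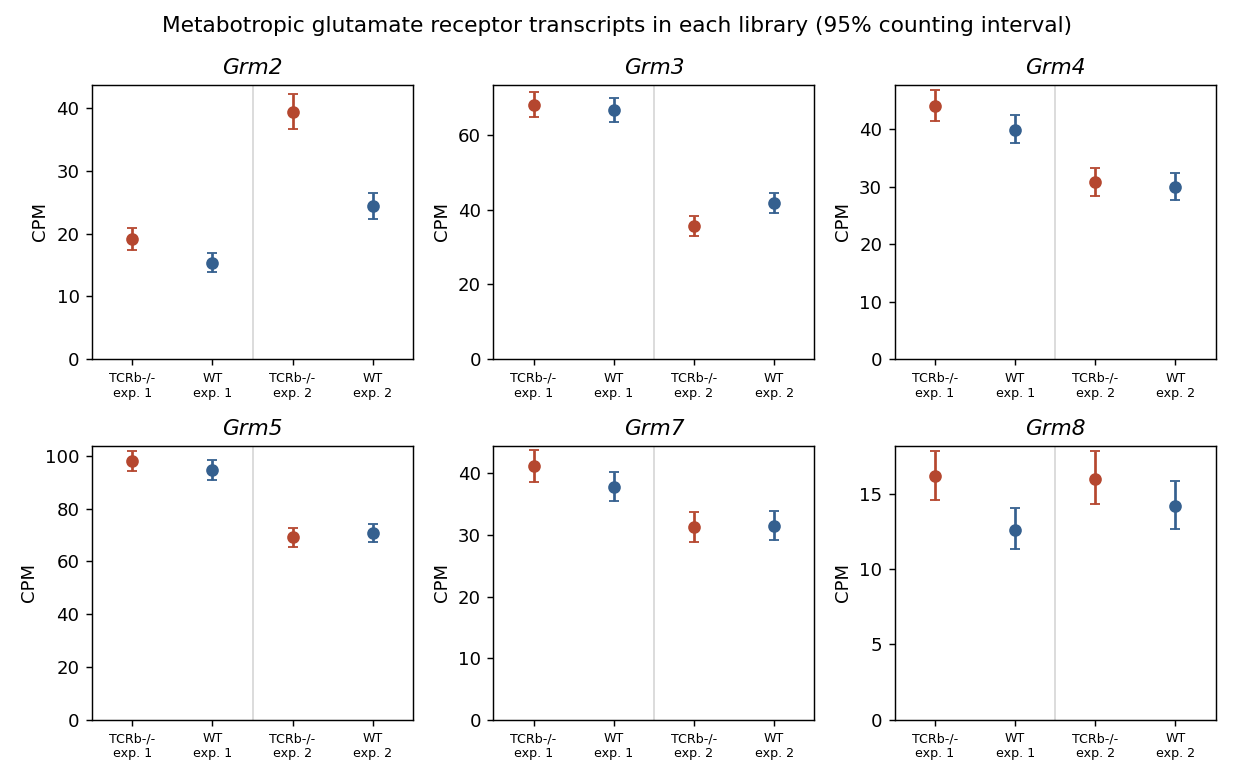
CPM of each receptor gene (vertical axis, from 0) in the 4 libraries (horizontal axis, experiments separated by a line), with exact 95% counting intervals. Grm2 is higher in both libraries of experiment 2, Grm3, Grm4, Grm5 and Grm7 are lower there, and Grm8 is higher in both TCRb-/- libraries than in either WT library.

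Genotype was compared first. No receptor gene passed the test between TCRb-/- and WT tissue. The test was limma's moderated linear model on log2(CPM + 1), a scale that understates changes of low genes, with Benjamini-Hochberg adjustment over 13912 genes that averaged at least 1 CPM and a threshold of 0.05 on the adjusted p. A gene past it is said to be called. limma called 0% of genes by genotype, 0.309% had an unadjusted p under 0.05, and 0 of the 6 receptor genes did. Trbc2, with 0 reads in both TCRb-/- libraries, was thus not called either, so a missing call does not show that a gene is unchanged. Voom weights also gave 0 calls. With the experiment as a block, 0.0144% of genes were called (Trbc2, outside the rule for named genes, and Ttr, a choroid plexus gene) and 5.64% had an unadjusted p under 0.05. Of the 6 receptor genes, 0 were called with the block and 1, Grm2, had such a p. The smallest p that an exact permutation test could reach with 2 against 2 was 0.333. The median log2 difference was 0.07 over the 6 genes and 0.00069 over all genes tested.

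Grm2, a presynaptic receptor that limits glutamate release, had 19.1 CPM in TCRb-/- and 15.3 CPM in WT in experiment 1, and 39.4 and 24.3 CPM in experiment 2. It was higher in TCRb-/- in both experiments, but the WT library of experiment 2 lay above the TCRb-/- library of experiment 1, so the genotypes overlapped. The means were 29.2 ± 14.4 CPM in TCRb-/- and 19.8 ± 6.36 CPM in WT (SD, n = 2 each), and these SDs contain the difference between experiments. The log2 difference was 0.49 (SE 0.39, limma adjusted p = 1.00). With the experiment as a block the SE was 0.12, the unadjusted p 0.00403 and the adjusted p 0.848. The ratio of TCRb-/- to WT was 1.24 in experiment 1 (95% interval 1.09 to 1.42) and 1.62 in experiment 2 (1.45 to 1.81), and the intervals cover counting error only. The choroid plexus list was higher in TCRb-/- in both experiments as well (2162 against 1322 CPM, then 6931 against 4218 CPM), and its sums ranked the 4 libraries in the same order as Grm2. Ttr and Enpp2 made up most of those sums, at 1204 and 769 CPM in TCRb-/- of experiment 1 and 4478 and 2028 CPM in TCRb-/- of experiment 2. Enpp2 was chosen after its values were seen. The thalamus list was higher in TCRb-/- in experiment 2 (831 against 551 CPM) and not in experiment 1 (441 against 447 CPM). The part of either list in the Grm2 ratio was not tested. Without TCRb-/- replicate 2 the log2 difference of Grm2 was -0.02, and without TCRb-/- replicate 1 it was 0.99, neither past the threshold.

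Grm8, the least abundant of the 6 per kb, had 16.1 and 16.0 CPM in TCRb-/- in experiments 1 and 2, against 12.6 and 14.2 CPM in WT. Both of its TCRb-/- libraries lay above both WT libraries, which held for 1 of 6 receptor genes. Among all genes tested, 9.76% had both TCRb-/- libraries above both WT libraries. The log2 difference was 0.25 (SE 0.16, limma adjusted p = 1.00, and 0.848 with the block). The ratio was 1.28 in experiment 1 (95% counting interval 1.10 to 1.48) and 1.13 in experiment 2 (0.964 to 1.32). Grm8 lies on the chromosome of the deleted locus, and the effect of DNA flanking that locus was not tested.

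The other 4 genes had ratios between 0.851 and 1.10 within the experiments. Grm3 was at 68.2 CPM in TCRb-/- and 66.7 CPM in WT in experiment 1, and at 35.6 and 41.9 CPM in experiment 2. Its ratio was 1.02 (95% counting interval 0.956 to 1.09) and then 0.851 (0.771 to 0.939). For Grm4 the ratios were 1.10 (1.01 to 1.20) and 1.03 (0.920 to 1.15). Those of Grm5, the only Gq-coupled gene examined, were 1.04 (0.981 to 1.10) and 0.976 (0.907 to 1.05). Grm7, a presynaptic receptor of low glutamate affinity, had ratios of 1.09 (0.994 to 1.19) and 0.991 (0.889 to 1.11). The fitted log2 differences of these genes ran from -0.10 to 0.09, with an adjusted p of 1.00 each in limma. Counting intervals that exclude 1 for Grm3 in experiment 2 and Grm4 in experiment 1 say nothing of the spread between pools of mice.

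**Figure D2:**
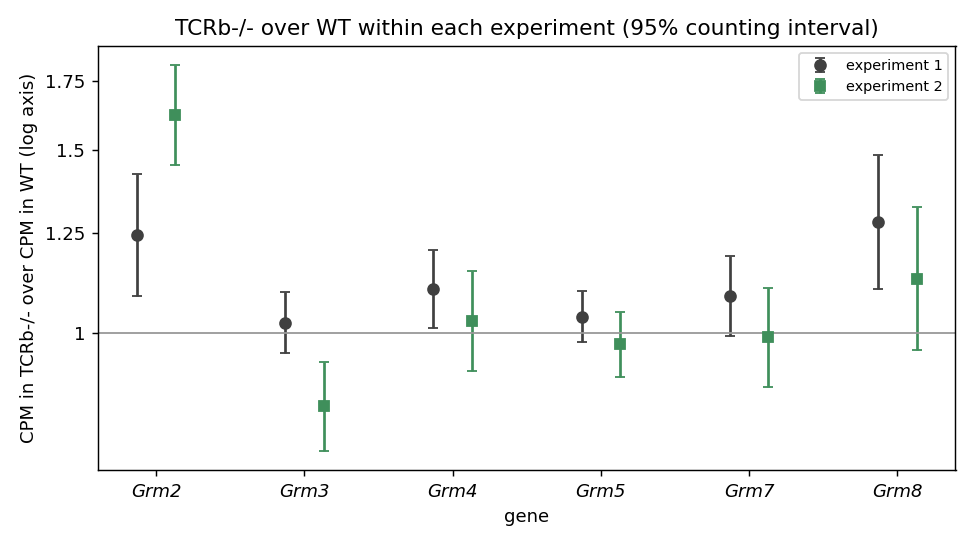
Ratio of CPM in TCRb-/- to WT (vertical log axis) for each gene (horizontal axis) in experiment 1 (circles) and experiment 2 (squares), with 95% intervals for counting error. Grm2 is at 1.24 and 1.62 and Grm8 at 1.28 and 1.13, while Grm5 is at 1.04 and 0.976.

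The libraries of the 2 experiments differed far more. Between experiments limma called 5 of 6 receptor genes, against 23.7% of all genes tested. Grm2 rose in experiment 2, as did 8.95% of genes, and Grm3, Grm4, Grm5 and Grm7 fell, as did 14.7% of genes. Grm8 was not called. The median log2 difference was -0.39 over the 6 genes and -0.03 over all genes tested. Of all calls 37.8% were higher in experiment 2, and under quantile normalization, which moved the median of all genes to 0.02, it was 50.6%. Grm7 was the member that lost its call under that scaling. The labels say only that there were 2 experiments, not how they differed. In this bulk tissue, fewer cells of a type and less RNA per cell cannot be told apart.

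In group II, Grm2 and Grm3 were both called and moved in opposite directions. Grm2 rose from 19.1 to 39.4 CPM in TCRb-/- and from 15.3 to 24.3 CPM in WT. Its means were 17.2 ± 2.64 CPM in experiment 1 and 31.9 ± 10.7 CPM in experiment 2 (SD, n = 2 each), a log2 difference of 0.82 (SE 0.21, limma adjusted p = 0.0287). The experiments did not overlap, and the TCRb-/- library of experiment 2 stood highest. Grm3 fell from 68.2 to 35.6 CPM in TCRb-/- and from 66.7 to 41.9 CPM in WT. The means were 67.4 ± 1.10 and 38.7 ± 4.41 CPM (SD, n = 2 each), a log2 difference of -0.79 (SE 0.09, limma adjusted p = 0.00501). All 4 libraries thus fell into 2 separate levels for Grm3 that followed experiment and not genotype. The reads of Grm3 per read of Grm2, a ratio within a library that no scaling changes, were 3.58 (95% counting interval 3.23 to 3.97) in TCRb-/- and 4.35 (3.90 to 4.86) in WT of experiment 1. In experiment 2 they were 0.904 (0.815 to 1.00) and 1.72 (1.55 to 1.92).

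The call of Grm2 was lost without TCRb-/- replicate 1 (0.97, adjusted p = 0.0576 in limma), TCRb-/- replicate 2 (0.48, 0.0530) or WT replicate 1 (0.67, 0.127), while Grm3 was called without each of the 4 libraries in turn. Grm2 moved with the thalamus and choroid plexus lists, of which limma called 6 of 11 and 13 of 14 genes higher in experiment 2. The thalamic Tcf7l2 had 43.6 and 56.5 CPM in experiment 1 and 182 and 108 CPM in experiment 2, TCRb-/- before WT. Grm2 and both lists were highest in the TCRb-/- library of experiment 2. The septum list was also highest in that library, by a smaller margin, with 2 of 10 genes called higher, 1 called lower and a median of 0.15. Grm3 was lowest in that library, as were the striatum list, of which 14 of 15 genes were called lower, and its Drd1, which had 167 and 146 CPM in experiment 1 and 25.7 and 81.3 CPM in experiment 2. The cortex and hippocampus list fell between experiments too, with 6 of 9 genes called lower, 1 called higher and a median of -0.84. The astrocyte list (13 of 13 listed) summed to between 2651 and 2892 CPM, of which Aldoc alone averaged 1518 CPM. Its sums did not follow Grm3, and its Aqp4 had between 42.4 and 46.4 CPM. In that list 0 of 13 genes were called higher and 1 lower, with a median of 0.04. The gene called was Slc4a4, at -0.49 (limma adjusted p = 0.00885). Aldoc and Slc4a4 were chosen after their values were seen. No gene of these lists was at 0 in any library. The part of these regions in the receptor differences was not tested.

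Grm5 fell from 98.0 to 69.0 CPM in TCRb-/- and from 94.4 to 70.8 CPM in WT. The experiments were 96.2 ± 2.51 and 69.9 ± 1.21 CPM (SD, n = 2 each), and the gap between them was wide against the spread of the genotypes within either. The log2 difference was -0.46 (SE 0.07, limma adjusted p = 0.00669), and Grm5 was called without each library in turn. Longer genes tended to be lower in experiment 2 (Spearman rho -0.398 over 13552 genes with a merged exon length, a description over genes that share libraries). Grm5 is longer than 90.6% of those genes, Grm8 than 89.7% and Grm3 only than 28.8%. With the trend on length removed, the log2 difference of Grm5 was -0.25 (adjusted p = 0.0448 in limma) and that of Grm3 was -0.81 (0.00606).

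In group III, Grm4 and Grm7 fell and Grm8 did not pass the test. Grm4 went from 44.0 to 30.8 CPM in TCRb-/- and from 39.9 to 29.9 CPM in WT, a log2 difference of -0.45 (SE 0.09, limma adjusted p = 0.0134). Grm7 went from 41.1 to 31.2 CPM in TCRb-/- and from 37.8 to 31.5 CPM in WT, a log2 difference of -0.32 (SE 0.09, limma adjusted p = 0.0347). For both genes the 2 libraries of experiment 2 were nearly level and lay below both of experiment 1. Grm8 had a log2 difference of 0.07 (SE 0.15, limma adjusted p = 0.750), with -0.01 in TCRb-/- and 0.16 in WT. With the length trend removed it was 0.28 (limma adjusted p = 0.236).

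The call of Grm7 was the least firm of the 5. Without TCRb-/- replicate 1, Grm4 lost its call (-0.38, adjusted p = 0.0671 in limma). Grm7 lost it without any of the 4 libraries, with differences from -0.38 to -0.26 and adjusted p from 0.0621 to 0.149. With the length trend removed Grm7 was at -0.19 (adjusted p = 0.160) and Grm4 at -0.32 (0.0447). Without limma's mean-variance trend, Grm3 was the 1 receptor gene called between experiments, and with genotype as a block as well there was 0, with adjusted p from 0.0659 to 0.104 for the 5 genes.

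**Figure D3:**
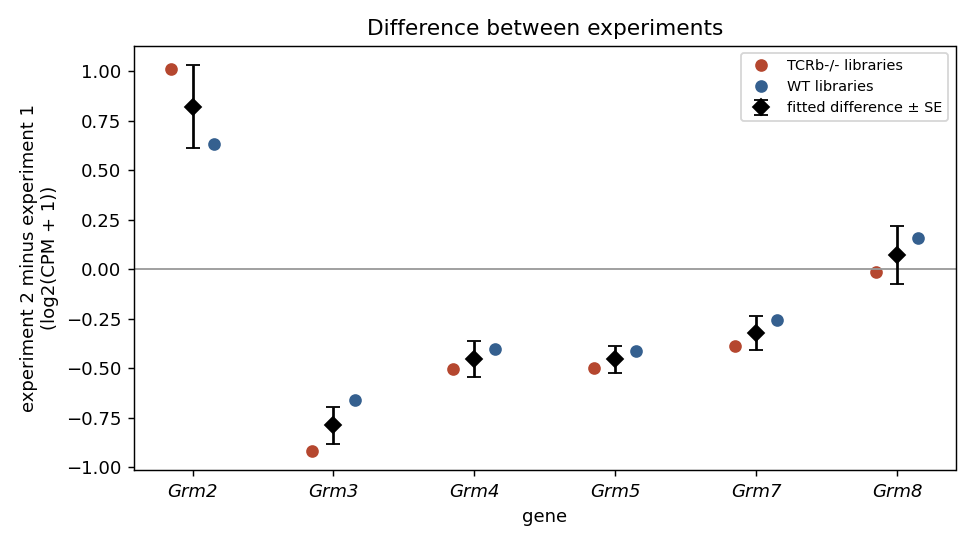
Difference in log2(CPM + 1) between experiment 2 and experiment 1 (vertical axis) for each gene (horizontal axis), for the TCRb-/- pair, the WT pair and the fit with its SE. Both pairs are above 0 for Grm2 and below 0 for Grm3, Grm4, Grm5 and Grm7, and the pairs of Grm8 lie on either side of 0.

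**Figure D4:**
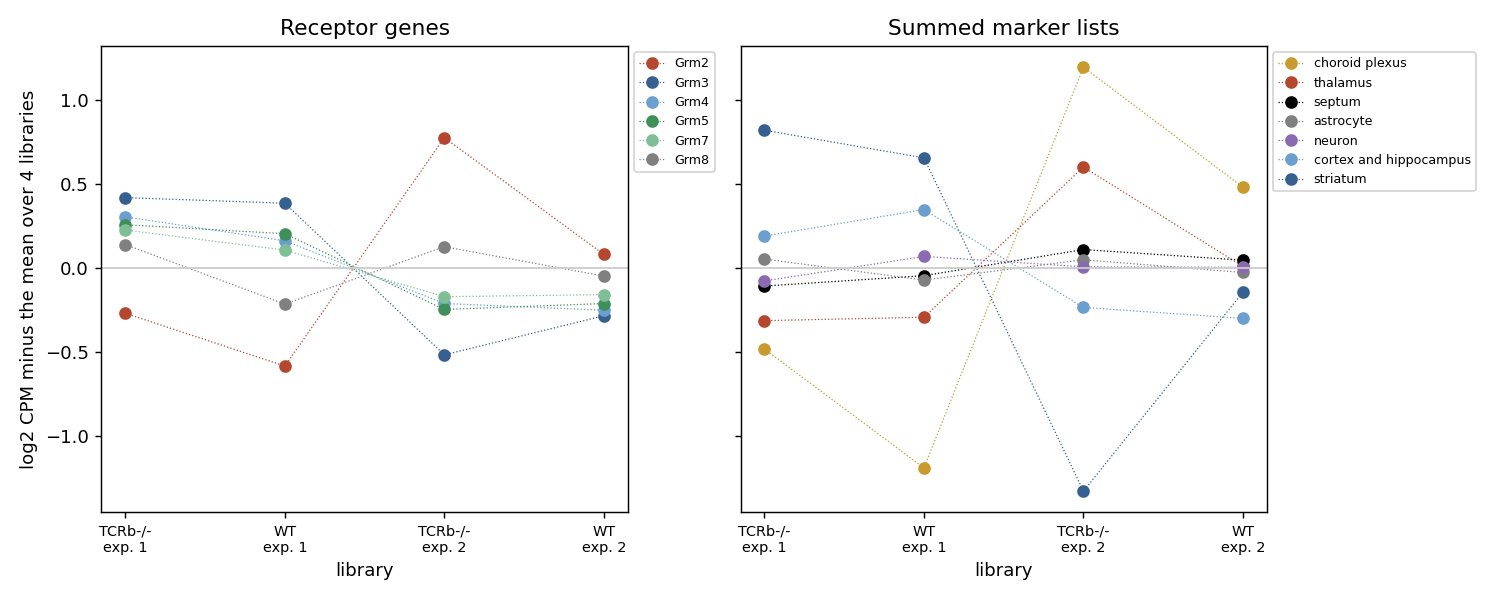
Log2 CPM of each receptor gene (left) and of each summed marker list (right), less its mean over the 4 libraries (vertical axis), by library (horizontal axis); dotted lines only join points of the same item. Grm2 and the thalamus, choroid plexus and septum lists are highest, and Grm3 and the striatum list lowest, in the TCRb-/- library of experiment 2.

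The genes of the pathway were described from 4 lists of transmitter handling, binding partners and the 2 G protein arms, of which 62 of 63 genes were listed and tested. By genotype, limma called 0 of 62, with or without the experiment as a block. Between experiments 2 rose and 20 fell, while 40 were not called; over all genes tested, 8.95% rose and 14.7% fell. The medians of the lists, given next, stand beside -0.03 over all genes tested.

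Of 12 genes that release, take up or break down glutamate and NAAG, 1 rose and 3 fell, with a median of -0.02. The vesicular transporters Slc17a6 and Slc17a7 moved in opposite directions. Slc17a6, the transporter of thalamic and other subcortical neurons, rose by 1.12 (SE 0.21, limma adjusted p = 0.0119), from 57.9 and 63.4 CPM to 174 and 101 CPM, and Slc17a7, the cortical and hippocampal form, fell by 2.79 (SE 0.11, adjusted p = 0.000143), from 146 and 178 CPM to 24.0 and 20.9 CPM. Slc1a3, an astrocyte glutamate transporter and the most abundant of the list, was at 387 to 454 CPM and was not called. Slc1a2, another glutamate transporter of the list, was called at -0.32 (SE 0.06, limma adjusted p = 0.0133) and was chosen after its values were seen.

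Of 18 genes whose proteins bind the receptors or their complexes, 0 rose and 5 fell, with a median of -0.17, where 23.7% of all genes tested were called. Nothing particular to the binding partners is read from that count. The lowest was Grasp, which encodes the group I scaffold tamalin, at -1.15 (SE 0.18, limma adjusted p = 0.00762). The smallest decrease called was that of Dlgap1, a postsynaptic scaffold, at -0.38. Homer1, the scaffold that ties Grm5 to the postsynaptic density and whose short form is induced by activity, fell from 104 and 122 CPM to 43.6 and 66.5 CPM. Elfn2, which binds group III receptors across the synapse, fell from 54.5 and 47.0 CPM to 36.3 and 31.9 CPM. Homer1 and Elfn2 were chosen after their values were seen. Ncdn, which encodes norbin and was the most abundant of the list, was at 1948 to 2164 CPM and was not called.

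In the Gq arm used by Grm5, 1 of 16 genes rose and 5 fell, with a median of -0.25. Plcb4, a phospholipase C abundant in thalamus, rose by 0.53 (SE 0.10, limma adjusted p = 0.0116). Itpr1, the receptor that releases calcium from stores, fell by 1.13 (SE 0.13, adjusted p = 0.00501). Prkcb, a protein kinase C and the most abundant of the list, fell from 762 and 795 CPM to 415 and 544 CPM. In the Gi/o arm used by the other 5 receptors, 0 of 16 genes rose and 7 fell, with a median of -0.21. The counts of both arms stand beside 8.95% of all genes tested called higher and 14.7% called lower. Adcy5, the adenylyl cyclase of striatal neurons, was lowest at -1.42 (SE 0.25, adjusted p = 0.00976 in limma). The smallest decrease called was that of Gnao1, the Go subunit, from 448 and 449 CPM to 355 and 362 CPM. Gnai1, an inhibitory G protein subunit and the most abundant of the list, was at 494 to 503 CPM and was not called.

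**Figure D5:**
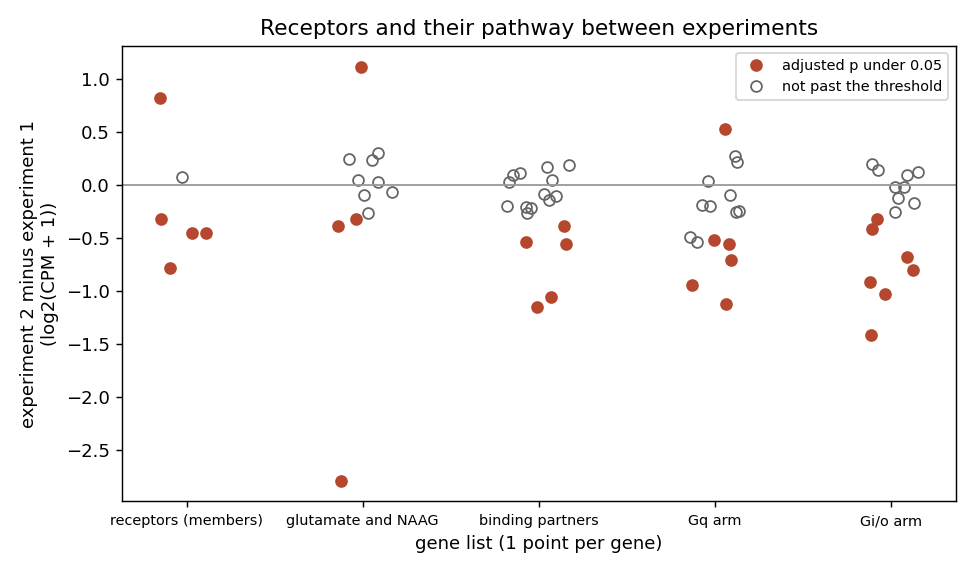
Difference in log2(CPM + 1) between experiment 2 and experiment 1 (vertical axis), 1 point per gene, for the 6 receptors and the 4 pathway lists (horizontal axis), filled where the adjusted p was under 0.05. Slc17a7 at -2.79 and Slc17a6 at 1.12 are the extremes of the pathway genes.

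The genes most like each receptor were those with the smallest Euclidean distance between their log2(CPM + 1) values, centred on the gene's mean over the 4 libraries, among 9821 genes of at least 10 CPM on average. With 4 libraries many genes have nearly the same profile, so closeness is a description only. Nearest to Grm2 were Ace (distance 0.160), Slc2a12 (0.173) and Slc41a3 (0.178). Ace, which encodes the angiotensin-converting enzyme, had 11.4 and 9.73 CPM in TCRb-/- and WT of experiment 1 and 24.7 and 17.1 CPM in experiment 2. Grm3 had far closer neighbours, Rnf144a (0.0132), Ankrd28 (0.0243) and Stard5 (0.0255). Those of Grm5 were Map4k5 (0.00683), Dot1l (0.0177) and Xpo7 (0.0194), those of Grm4 were Gpt2 (0.0354), Adgrl3 (0.0383) and Gabrg3 (0.0430), and those of Grm7 were Atg16l1 (0.0216), Mbtd1 (0.0228) and Slc7a6 (0.0253). Grm8 was nearest to Gm42644 (0.0311), B4galt7 (0.0383) and Hsf1 (0.0402). Within the family, Grm4 and Grm5 were closest (0.0804), and Grm2 and Grm3, the group II pair, were farthest apart (1.74).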

How the data were processed

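RNA came from the supernatant of centrifuged homogenates of pooled septal tissue, and SMARTer libraries were sequenced on an Illumina HiSeq2500, per the labels' protocols. RNA that went into the pellet is not measured. HISAT2 2.1.0, SAMtools 1.3, HTSeq 0.9.1, R 4.0.5, limma 3.46.0 and mm10 are named in the submitters' processing notes, without their roles. The deposited values were log2 CPM per gene and library. They equal the log2 of reads plus 0.5 over the library total plus 1, and solving for the total gave whole reads for 100% of values within 0.001 reads. The rule by which the authors kept rows is not given in the sources used here.

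From those reads CPM and log2(CPM + 1) were computed. The 17 spike-in rows were left out, and the 13912 genes averaging 1 CPM or more were fitted with limma 3.58.1 in R 4.3.3 (mean-variance trend, two-sided, Benjamini-Hochberg). Genotype or experiment was the only term. The fit was tested on simulated data. Other steps used Python 3.11.15, scipy 1.17.1, pandas 2.3.3, matplotlib 3.10.9 and numpy 2.4.6. Intervals are exact binomial at 95% and cover counting error only. They take each read as independent, which amplified reads are not, so they may be too narrow even for that error. One read was worth 0.0382 to 0.0500 CPM.

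The labels give the replicate number as the experiment, which pairs the libraries. Across genes, the deviations of same-numbered libraries from their genotype means had a correlation of 0.719. Replicate libraries differed beyond counting noise (chi-square per degree of freedom 53.0 in TCRb-/- and 30.7 in WT). Replicates are pools, and no pair of pools shared both genotype and experiment. The spread behind the genotype p-values therefore contains the difference between experiments. That behind the experiment p-values contains the difference between genotypes. With the block, the spread is what both terms leave.

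The members and the gene lists were chosen with earlier results of these data known. The rule named the 6 members, the called genes with the highest and lowest difference and the most abundant gene of each pathway list, the first 2 genes of each marker list, and the 3 genes nearest each member. Lists for oligodendrocytes (summed CPM 9634 to 11394), microglia (151 to 165), endothelium (9.12 to 14.2, 6 of 7 listed) and neurons (6796 to 7520) were also summed. Alternatives were median-of-ratios scaling, quantile normalization, a minimum of 10 CPM or none, pseudocounts of 0.1 and 5, no trend, voom weights, a block and leaving out single libraries. Combinations with the block and the removal of a trend on exon length (a spline with 4 degrees of freedom) were chosen after seeing the data.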

Additional observations from a re-analysis of the deposited data

Results flagged for a closer look

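The genotype difference had opposite signs in the 2 experiments for 3 genes, each with 1 library per genotype and experiment, and the change of sign was not tested. TCRb-/- minus WT in log2(CPM + 1) was 0.0328 in experiment 1 and -0.2271 in experiment 2 for Grm3, 0.0528 and -0.0349 for Grm5, and 0.1167 and -0.0120 for Grm7. Grm8 differed between experiments by -0.0117 in TCRb-/- and 0.1554 in WT, again not tested. The spike-in RNAs, which no comparison used, were above the limit that 0 reads allow, at 193.7 and 244.1 CPM in TCRb-/- and WT of experiment 1 and 159.8 and 174.8 CPM in experiment 2.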

How the results depend on the processing

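With all libraries kept, the 6 genes held their direction in 84 of 84 values by genotype and 84 of 84 between experiments, and 13 of the latter lost the call. The number of genes called by genotype was 2 with the replicate block (the pairing by experiment). Adding voom weights to it gave 2, quantile normalization 2 and removal of the length trend 14, while the block without the mean-variance trend gave 0, so the calls of Trbc2 and Ttr were lost there. No receptor gene was called by genotype under any of these, and the block changed no call of theirs. Between experiments there were 629 genes and 1 receptor gene without the trend, and 0 genes and 0 receptor genes with genotype as a block and no trend. The cause was not tested. The share of calls higher in experiment 2 was 20.7% without the trend and 53.2% with the length trend removed, against 37.8%. Leaving out 1 library leaves a lone sample that is assumed to vary like the others, and unbalances the experiments. Genes called then ranged from 0 to 47 by genotype (47 without TCRb-/- replicate 1, 1 without TCRb-/- replicate 2) and from 1406 to 3390 between experiments (1406 without TCRb-/- replicate 1, 1823 without TCRb-/- replicate 2, 1637 without WT replicate 1). Receptor genes called between experiments ranged from 2 (without TCRb-/- replicate 1) to 4, with 3 without TCRb-/- replicate 2 or WT replicate 1. By genotype the log2 differences ranged from -0.019 to 0.99 for Grm2, from -0.56 to 0.36 for Grm3, from -0.16 to 0.34 for Grm4, from -0.24 to 0.26 for Grm5 and from -0.14 to 0.25 for Grm7, and between experiments from -0.094 to 0.24 for Grm8. The smallest member, Grm8, rests on 317 to 397 reads per library.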
